A study of Mus musculus with 6 samples.

Results

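Transcripts of 7 genes that mouse immunology ties to eosinophils were followed in olfactory epithelium, where odours are sensed, of mice with and without the chloride transporter NKCC1. They are the ribonuclease genes Ear1, Ear2, Ear10 and Ear11, the granule protein genes Prg2 and Epx, and the surface receptor gene Siglec5. They were taken by symbol, and these 7 genes were found among the 21881 distinct symbols of the deposited table. They had been picked with the difference between genotypes in view, so that difference is given for them as a description without a test. Adult mice of the NMRI strain were either wildtype (WT) or NKCC1-/- (KO), where Slc12a2, the gene of the sodium-potassium-chloride cotransporter NKCC1, is disrupted. The labels do not describe the allele or any further treatment. Each genotype had 3 libraries, each a pool of animals. A first kind of pool joined 2 male with 2 female epithelia (mixed), and the others were made from 3 males or from 3 females. The labels do not say whether an animal entered more than 1 pool, so a p-value measures only the spread between these pools.

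Eosinophils are granulocytes that mature in bone marrow under interleukin 5 and enter tissues along eotaxins, the chemokines sensed by the receptor Ccr3. Their granules hold major basic protein (from Prg2), eosinophil peroxidase (from Epx) and the eosinophil-associated ribonucleases, a rodent family of near copies encoded by the Ear genes. In mice, Prg2 and Epx transcripts are most abundant in eosinophil precursors of the marrow, while several Ear genes are also transcribed by monocytes and macrophages. Siglec5 is an older symbol. RefSeq lists it as a synonym of Siglecf and of Siglece, and since Siglece has a row of its own in the table, the Siglec5 row was read as Siglecf, the inhibitory sialic acid receptor that marks mouse eosinophils.

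The 4 ribonuclease genes lie on chromosome 14, and stretches of 120 bases just before their starts are shown because these copies resemble one another and their transcripts were higher together in KO. Sequences are from RefSeq on build GRCm38.p6, 5′ to 3′ in the direction of the gene. Capitals mark the letters CCAAT, the core of the CCAAT box, and TTGCNNAA, a form of the C/EBP motif.
Ear1, chr14:43819640-43819759, strand minus: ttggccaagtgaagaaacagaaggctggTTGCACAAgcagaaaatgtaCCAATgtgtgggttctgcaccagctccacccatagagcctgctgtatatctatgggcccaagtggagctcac
Ear2, chr14:44102534-44102653, strand plus: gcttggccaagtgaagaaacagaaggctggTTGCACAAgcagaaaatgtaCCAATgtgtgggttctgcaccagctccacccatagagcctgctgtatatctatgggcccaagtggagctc
Ear10, chr14:43923597-43923716, strand minus: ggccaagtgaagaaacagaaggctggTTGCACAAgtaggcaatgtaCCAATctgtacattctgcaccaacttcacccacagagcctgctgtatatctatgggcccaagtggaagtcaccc
Ear11 (now Rnase2a), chr14:51256113-51256232, strand minus: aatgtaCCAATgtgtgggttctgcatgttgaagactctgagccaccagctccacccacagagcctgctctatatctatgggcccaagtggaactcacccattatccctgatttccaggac
The same stretch of Epx, a granule gene on chromosome 11, carries neither motif. Its level was too low for a difference between genotypes to be detectable, so no link between motif and level is read.
Epx, chr11:87875537-87875656, strand minus: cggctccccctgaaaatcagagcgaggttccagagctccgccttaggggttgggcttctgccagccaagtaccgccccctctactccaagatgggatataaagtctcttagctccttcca
Over the 250 bases before the start, Ear1 and Ear2 were 97.6% identical in a global alignment, Ear1 and Ear10 91.7%, and Ear1 and Ear11 61.3%. Ear1 and Epx, which are unrelated, aligned at 46.3%. Ear1, Ear2 and Ear10 each held 3 CCAAT matches and 1 TTGCNNAA match, and Ear11 held 1 of each. On either strand, 33.8% of all 32536 distinct promoter windows of this length held CCAAT and 9.57% held TTGCNNAA. The TTGCNNAA match of Ear11 starts 217 bases before the gene, outside the stretch shown. The letters AGATAA, a form of the GATA motif found in 9.97% of windows, were in none of the 6 member promoters at hand, and neither was a STAT motif (5.89% of windows). The PU.1 letters GAGGAA (23.4% of windows) were in those of Ear11 and Siglec5, and TATAAA (12.3%) in that of Epx. These matches describe letters only. The promoter of Prg2, on chromosome 2, is named only.

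Before the members, the targeted gene checks the labels. Slc12a2 was at 83.3, 40.2 and 36.0 FPKM in mixed, male and female WT pools and at 28.0, 16.1 and 18.01 in those of KO. FPKM is the number of fragments scaled for transcript length and for library size. Each KO library lay below each WT library, which 5.24% of all genes tested did, and the change on the log2(FPKM + 1) scale was -1.26 ± 0.32 (SE, n = 3 each; limma adjusted p = 0.11), which did not pass. It passed in 3 of 15 alternatives, among them without the WT female library (adjusted p = 0.0050). Omp, the marker of mature olfactory neurons, was at 1800 to 2977 FPKM in WT and 1209 to 2012 in KO. A list of 9 genes joined markers of the tissue with the disrupted gene Slc12a2. Of these, 7 had lower means in KO, Slc12a2 included, and 0 passed in limma, with a median change of -0.70. An unadjusted p under 0.05 was reached by 5 of these 9, again with Slc12a2, and by 8.88% of all genes. Their sum was 4471 to 7116 FPKM in WT and 3146 to 5710 in KO, and its part in the results on the members was not tested. Libraries correlated at 0.94 to 0.98 (log2 values) inside a genotype and at 0.93 to 0.97 across genotypes. Depth, estimated from the low values, was 3530000 and 3900000 fragments in the WT and KO mixed pools and 11090000 to 14350000 in the other 4. The 10 most abundant genes held 45.7% of summed FPKM in the WT female library and 15.5 to 34.4% in the others.

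Levels of the ribonuclease transcripts were higher in KO with no overlap of libraries, while those of the granule proteins and of the receptor overlapped. Of the 7 members, 4 had each KO library above each WT library, namely Ear1, Ear2, Ear10 and Ear11. Over all 15067 genes tested, 7.46% showed that separation. The same 4 members differed by at least 1 on the log2(FPKM + 1) scale, as 1.02% of all genes did in that direction, and 0.836% of all genes passed the test in either direction. The members were chosen on this contrast, so nothing is read from their count. In whole tissue, more cells of a type and more RNA per cell cannot be told apart.

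Ear2 encodes one of the main eosinophil ribonucleases. It stood at 3.503, 1.13 and 1.81 FPKM in mixed, male and female WT pools and at 16.01, 13.9 and 17.3 FPKM in those of KO. The KO libraries lay close together, and the lowest of them was far above the highest WT library, the mixed one. The WT mean was 2.15 ± 1.22 FPKM and the KO mean 15.7 ± 1.70 (SD over 3 libraries, as in all such values), a ratio of 7.32, and the difference of log2(FPKM + 1) was 2.47.

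Ear1, the nearest copy of Ear2, was at 1.46, 0.129 and 2.77 FPKM in mixed, male and female WT pools. In KO it was at 8.26, 8.62 and 17.2 FPKM. The KO female library was highest and the WT male library lowest, at the worth of about 1.04 fragments. The means were 1.45 ± 1.32 FPKM in WT and 11.3 ± 5.04 in KO, a ratio of 7.83.

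Ear10, a further ribonuclease copy, varied more than Ear2 within each genotype. Among WT libraries the mixed one had it listed at 0, and the male and female ones were at 1.63 and 6.28 FPKM. The KO mixed and male libraries were close, at 11.3 and 12.4 FPKM, and the KO female library was at 30.05. The groups did not overlap, and the gap between the highest WT and the lowest KO library was narrower than for Ear2. The means were 2.64 ± 3.26 FPKM in WT and 17.9 ± 10.5 in KO, a ratio of 6.79.

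Ear11 was close to absent from WT. Mixed and female WT pools had it listed at 0, and the male WT pool was at 0.137 FPKM, worth about 1.06 fragments. In KO it was at 1.35, 3.89 and 6.30 FPKM in the mixed, male and female libraries, worth about 2.85, 28.1 and 39.6 fragments. No fold is given, since the WT level rests on 1 fragment. The difference of log2(FPKM + 1) was 2.07.

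**Figure D1:**
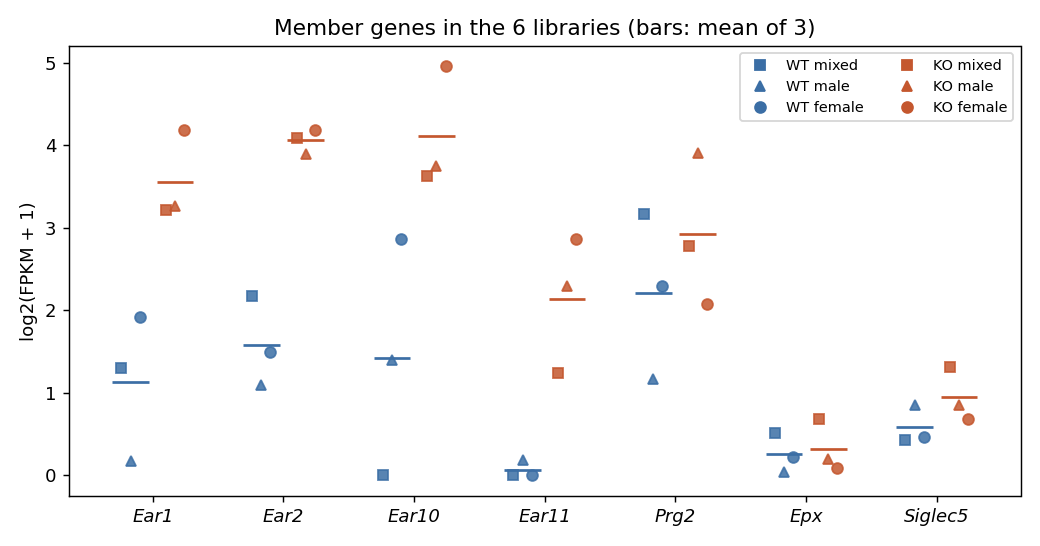
Level of each member gene in the 6 libraries as log2(FPKM + 1); squares are mixed, triangles male and circles female pools, blue WT and orange KO, and bars the mean of 3 libraries. For Ear1, Ear2, Ear10 and Ear11 each KO point lies above each WT point, whereas for Prg2, Epx and Siglec5 the colours overlap.

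The copies can trade fragments, so they were also summed. Of the 101-nt windows of the Ear2 transcript, 69.8% matched another Ear transcript with at most 2 mismatches and 13.7% matched exactly. For Ear1 the shares were 49.1 and 2.28%, and for Ear10 36.9 and 17.1%. For Ear11 they were 1.36 and 0%, the lowest of the 4. Whole Ear1 and Ear2 transcripts were 95.97% identical, Ear2 and Ear10 89.03%, and Ear2 and Ear11 78.0%. These comparisons used the longest protein-coding GENCODE M21 transcript of each gene and the 7 Ear genes found there, which do not include Ear12. The part of shared fragments in the levels was not tested.

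Summed over the 4 ribonuclease members, the mixed, male and female WT pools held 4.96, 3.03 and 10.9 FPKM. The KO libraries held 36.96, 38.8 and 70.8 FPKM. The KO female library was highest and the WT female library was the highest of its genotype. The mean sum was 6.28 ± 4.08 FPKM in WT and 48.8 ± 19.0 in KO, a ratio of 7.78, and the difference of the sums as log2(FPKM + 1) was 2.86. Leaving out each library in turn gave differences of 2.504 to 3.28.

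The shares of Ear1, Ear2 and Ear10 in the sum spread less over the KO than over the WT libraries. Ear1 held 22.4, 22.2 and 24.3% of it in mixed, male and female KO pools. Ear2 held 43.3, 35.8 and 24.4%, Ear10 30.7, 31.9 and 42.5%, and Ear11 3.66, 10.04 and 8.90%. In WT, where the sums were small, the share of Ear2 ran from 16.7% in the female to 70.6% in the mixed library, and that of Ear10 from 0 to 57.8%. The share of Ear11 was 4.52% in the male WT pool and 0 in the other WT pools.

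Other Ear genes of the table, which are no members, were Ear4, Ear5, Ear6, Ear7, Ear12 and Ear14. Ear4, Ear5 and Ear14 were listed at 0 in all 6 libraries. Ear12 was at 0.120 and 4.34 FPKM in the WT male and female libraries and at 6.34 and 15.2 in the KO male and female ones. In both mixed pools Ear12 was nearly 0 (1.3e-05 FPKM in WT and 2.5e-04 in KO), so it overlapped between genotypes. Summed with Ear10, it left a narrow gap, from 10.6 FPKM in the WT female to 11.3 in the KO mixed library. Ear6 and Ear7 stayed at or below 1.08 FPKM and had no common direction. With all 6 added, which was tried after the values of Ear12 had been seen, the sum was 8.39 ± 6.92 FPKM in WT and 56.2 ± 26.2 in KO, and the KO libraries again lay above the WT ones.

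**Figure D2:**
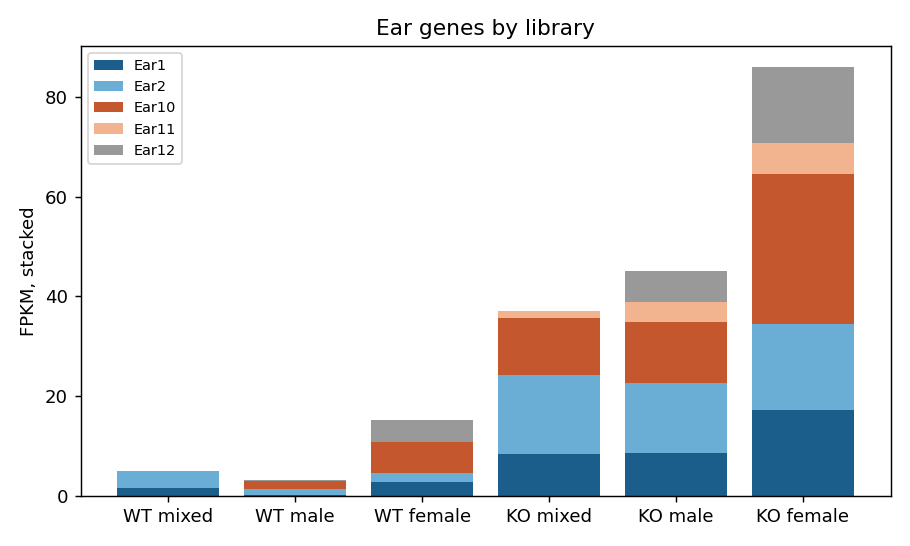
FPKM of Ear1, Ear2, Ear10, Ear11 and Ear12 stacked for each library. The 3 KO stacks, the lowest at 36.96 FPKM, stand above the WT stacks, and Ear12 (grey) is absent from both mixed pools.

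The granule protein genes gave another picture. Prg2 encodes major basic protein, the core of the eosinophil granule. It was at 7.96, 1.25 and 3.92 FPKM in mixed, male and female WT pools and at 5.84, 14.02 and 3.22 FPKM in those of KO. The groups overlapped, with the KO female library below the WT female one and the KO male library above all. The means were 4.38 ± 3.38 FPKM in WT and 7.69 ± 5.63 in KO, and the difference of log2(FPKM + 1), 0.71, was smaller than the pooled SD of 0.96. Without the WT male library it was 0.19, without the KO male library 0.21, without the KO female library 1.13 and without the WT mixed library 1.19. No window of its transcript matched a transcript of an Ear gene or of another member, and its values were worth about 12.4 to 129 fragments.

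Epx encodes eosinophil peroxidase, which makes the oxidant of these granules. It was at 0.430, 0.0262 and 0.166 FPKM in mixed, male and female WT pools and at 0.598, 0.141 and 0.0656 in those of KO. These levels are worth only about 0.955 to 5.92 fragments, so a difference was not detectable at this depth, and the difference of log2(FPKM + 1), 0.061, ran from -0.12 to 0.19 with 1 library left out. Epx was the only member below the filter of a mean of 0.5 FPKM, and the other 6 passed it. Ear11 reached it only through its KO libraries.

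Siglec5 was at 0.343, 0.808 and 0.376 FPKM in mixed, male and female WT pools and at 1.48, 0.808 and 0.602 FPKM in those of KO. The mixed KO library was highest and the male pools of both genotypes were level, so the groups overlapped. The means of 0.509 ± 0.259 and 0.962 ± 0.456 FPKM differed by 0.37 on the log2(FPKM + 1) scale, against a pooled SD of 0.28. Without the KO mixed library the difference was 0.19, and without other single libraries 0.29 to 0.50.

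By level in KO, the mean order was Ear10 (17.9 FPKM), Ear2 (15.7), Ear1 (11.3), Prg2 (7.69), Ear11 (3.85), Siglec5 (0.962) and Epx (0.268). Neighbours in this order overlapped across libraries, except that each library of Siglec5 lay above each of Epx. In WT the order was Prg2 (4.38), Ear10 (2.64), Ear2 (2.15), Ear1 (1.45), Siglec5 (0.509), Epx (0.208) and Ear11 (0.0456), and all neighbours overlapped. The ribonuclease sum was 0.623, 2.42 and 2.77 times the Prg2 level in mixed, male and female WT pools and 6.33, 2.77 and 21.98 times in those of KO. The KO male library, with the most Prg2, lay at the WT female ratio. The separation of the genotypes thus rests here on the Ear genes, since the granule and receptor genes overlapped between genotypes. The set is best called by its genes.

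Within each kind of pool, 1 KO library can be set beside 1 WT library. The ribonuclease sum was 7.45 times as high in KO in the mixed, 12.8 times in the male and 6.52 times in the female pools. Prg2 in KO was at 0.733 times the WT level in the mixed, 11.2 times in the male and 0.821 times in the female pools. The sum was thus higher in KO in 3 of 3 kinds of pool and Prg2 in 1 of 3. These ratios of single libraries have no replicate check.

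**Figure D3:**
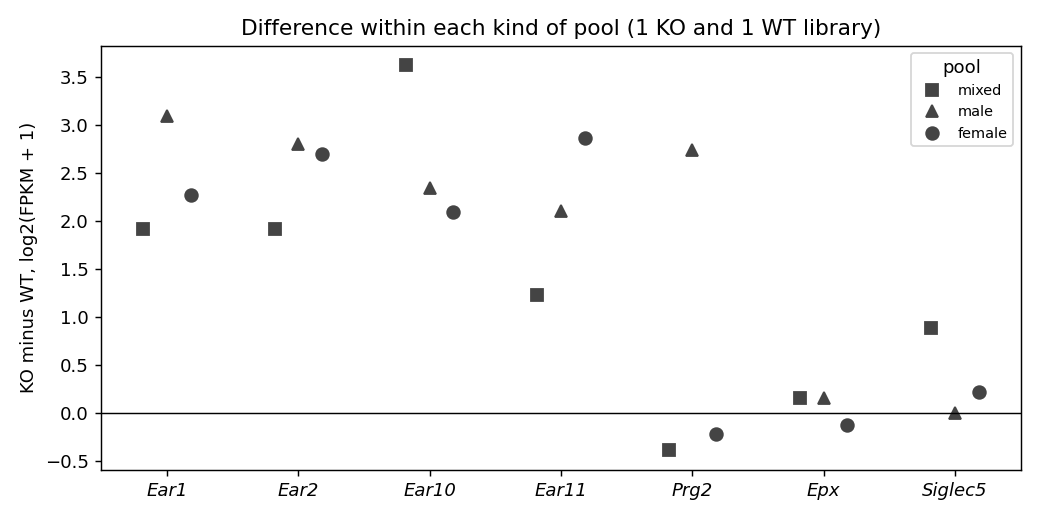
KO minus WT of log2(FPKM + 1) for each member, with 1 KO and 1 WT library per point; squares are mixed, triangles male and circles female pools. All points of the 4 Ear genes lie above 0, and those of Prg2 lie at 2.74 in the male and below 0 in the mixed and female pools.

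Sex and the kind of pool were not used in choosing the members, so these could be tested over all genes. The first test took the share of females in a pool (0, 50 or 100%) together with genotype. Of the 6 members tested 0 passed in limma, against 0.0996% of all genes. Ear11 is counted among the 6 but reached the filter only through its KO libraries. Its values in the tests of sex and of the kind of pool are therefore given without being read. Ear1 changed by 1.33 ± 0.42 and Ear10 by 1.34 ± 0.52 (log2, SE) from a male to a female pool, with unadjusted p of 0.0036 and 0.016 and an adjusted p of 1 for each. No other member had an unadjusted p under 0.05, which 0.743% of all genes had. Without the WT female library the change of Ear10 was 0.41, and without the WT male library 2.12. The female pool held more Ear1 and Ear10 than the male pool of its genotype in 2 of 2 genotypes.

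The product of genotype and female share asked whether the genotype difference varied with sex. Again 0 of 6 members passed in limma, where 0.126% of all genes did. Prg2 had the largest coefficient, -2.96 ± 0.92 (SE, unadjusted p = 0.0031, adjusted p = 0.68), and 4.15% of all genes had an unadjusted p under 0.05. The median of all genes was 0.71 in that fit. Prg2 was at 14.02 FPKM in the male and 3.22 in the female KO library, and at 1.25 and 3.92 in those of WT. The Prg2 coefficient varied with the WT library left out. It was -0.10 without the WT male library (adjusted p = 0.93) and -5.82 without the WT female library (adjusted p = 0.021). That of Ear10 ran from -4.52 without the WT male library (adjusted p = 0.017) to 4.01 without the WT female library (adjusted p = 0.42). Each of these fits has 1 residual degree of freedom among samples.

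Mixed against single-sex pools gave 0 calls among the 6 members in limma, where 0.0531% of all genes passed. Ear10 was lower in mixed pools by a log2 change of -1.43 ± 0.44 (SE, unadjusted p = 0.0048, adjusted p = 0.27), where 11% of all genes had an unadjusted p under 0.05. With 1 library left out it passed in 5 of 6 cases, with adjusted p of 8.9e-04 to 0.046. Without the WT mixed library the change was -0.72 and the adjusted p 1. Ear11, listed at 0 in 2 WT libraries, is not read in this comparison. In the mixed pools 1 fragment of Ear10 is worth 0.537 (WT) and 0.486 FPKM (KO), against 0.132 to 0.171 in the others, and the part of depth in these differences was not tested.

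The signals that call eosinophils into tissue were next compared between genotypes with limma over all genes, where 0.212% of genes passed as higher and 0.624% as lower in KO. Of 12 attractants and growth factors, 8 were tested, 1 rose and 0 fell, and 6 had an unadjusted p under 0.05, against 8.88% of all genes. Ccl11, the first eotaxin, rose from 0.588, 0.390 and 0.209 FPKM in mixed, male and female WT pools to 4.81, 4.32 and 6.44 in KO (log2 change 2.14 ± 0.25 SE, adjusted p = 0.0013). It passed under all 15 alternatives tried. Ccl24, another eotaxin, was listed at 0 in the mixed WT pool, at 0.240 and 0.153 FPKM in the male and female ones, and at 1.05, 0.955 and 1.16 in KO (0.87, adjusted p = 0.066), with no overlap. Csf2, the growth factor GM-CSF, was at 0.291, 0.975 and 0.287 FPKM in WT and 2.89, 1.45 and 2.02 in KO (1.04, adjusted p = 0.10), and passed in 2 of 14 alternatives, among them without the WT mixed library (0.026). Ccl8, a monocyte chemoattractant, had a change of 1.95 (adjusted p = 0.21) and passed in 5 of 15 alternatives, among them without the WT mixed (0.017) or the WT male library (0.0040). Il5, the eosinophil growth factor, was at most 0.067 FPKM in any library, and Il3 was listed at 0 in all. The median change of the list was 0.90, beside 0.01 for all genes tested.

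Among receptors of these signals, Ccr3 and Il5ra were low. Ccr3, the eotaxin receptor, was at 0.204, 0.215 and 0.143 FPKM in mixed, male and female WT pools and at 0.802, 0.085 and 0.277 in those of KO, and Il5ra was above 0 in the KO mixed library only (0.070 FPKM). Both were under the filter. Of the 12 receptors, 11 were in the table and 5 were tested, with 0 passing in limma and 2 at an unadjusted p under 0.05. Each KO library lay above each WT library for 3 of these 5, as for 7.46% of all genes tested. Csf2rb, the shared chain of the receptors for interleukin 5, interleukin 3 and GM-CSF, was at 1.60, 1.83 and 0.815 FPKM in WT and 3.07, 1.88 and 2.40 in KO (log2 change 0.52, adjusted p = 0.64). Csf2ra, the GM-CSF receptor chain, was at 4.89, 3.04 and 1.44 FPKM in WT and 7.31, 4.38 and 6.89 in KO. Its change was 0.87 (adjusted p = 0.39), and it passed in 1 of 15 alternatives, without the WT mixed library (0.012). The median of the list was 0.49.

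Of 14 other genes found in eosinophils, 8 were tested, 0 passed in limma and 4 had an unadjusted p under 0.05, with a median of 0.61. Prg3, the second major basic protein, was at most 0.265 FPKM, and Gpr44, the prostaglandin D2 receptor of eosinophils, at most 0.125. Alox15, a lipoxygenase of eosinophils and epithelium, was at 29.3, 24.04 and 17.1 FPKM in WT and 39.1, 50.5 and 80.7 in KO (1.205 ± 0.29 SE, adjusted p = 0.088), with no overlap. It passed in 7 of 15 alternatives: without the WT mixed (4.9e-04) or the WT female library (0.043), without both mixed pools (4.6e-04), with quantile (0.026) or median ratio scaling (0.037), with the female share as a covariate (0.043) and with a term for the kind of pool. Lgals3, a galectin of many myeloid cells, had a change of 1.12 (adjusted p = 0.16) and passed in 3 of 15 alternatives, among them without the WT mixed library (0.0083).

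Regulators of the eosinophil lineage did not pass. Of 14, 13 were in the table and 11 were tested, with 0 passing in limma, 0 at an unadjusted p under 0.05 and a median of 0.19. Gata1, the factor that eosinophil commitment needs, was at most 0.682 FPKM, in the WT mixed library. Cebpe, which drives granule genes, was at most 0.704. Xbp1, needed for eosinophil survival in the marrow and used by secretory cells at large, was at 104, 168 and 177 FPKM in WT and 178, 224 and 185 in KO (adjusted p = 0.80).

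Signals and receptors of type 2 immunity, the response in which eosinophils take part, were 16, with 10 tested, 1 higher and 3 at an unadjusted p under 0.05. Il13ra2, the decoy receptor of interleukin 13, rose from 0.190, 0.208 and 0.141 FPKM to 2.67, 2.13 and 3.497 (1.66 ± 0.22 SE, adjusted p = 0.0035) and passed under all 14 alternatives that tested it. Il13 was listed at 0 in each WT library and was at 0.251, 0.427 and 0.915 FPKM in mixed, male and female KO pools, under the filter. Il4 had no common direction, and Il33, the alarmin of epithelium, was at 95.4, 90.7 and 80.7 FPKM in WT and 43.7, 60.04 and 93.8 in KO (adjusted p = 0.71).

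Of 24 genes that answer type 2 signals in epithelium and macrophages, 19 were tested, 5 rose and 0 fell, and 12 had an unadjusted p under 0.05 (8.88% of all genes did). Those that rose were Retnla, Chi3l3, Chi3l4, Fcgbp and Alox12e. Retnla, a resistin-like protein of alternatively activated macrophages and eosinophils, was at 0, 0.155 and 0.205 FPKM in mixed, male and female WT pools and at 6.09, 14.6 and 13.6 in KO (3.39 ± 0.31 SE, adjusted p = 3.7e-04). Chi3l3, a chitinase-like protein, had a change of 2.18 (adjusted p = 0.015) that did not pass without the KO mixed (0.075) or the KO female library (0.14), nor without the filter (0.14). Its near copy Chi3l4 was at 2.34, 154 and 6.31 FPKM in WT and 4801, 5656 and 8045 in KO (8.59 ± 0.97 SE, adjusted p = 0.0013). Chi3l4 passed in 14 of 15 alternatives, not without the filter (0.058), and the copies can share fragments. Arg1, the arginase of such macrophages, was at 0, 0.521 and 0.370 FPKM in WT and 1.53, 0.619 and 1.90 in KO (adjusted p = 0.23). All 19 changes were positive, with a median of 0.91. These lists were drawn up with earlier results of these data known.

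**Figure D4:**
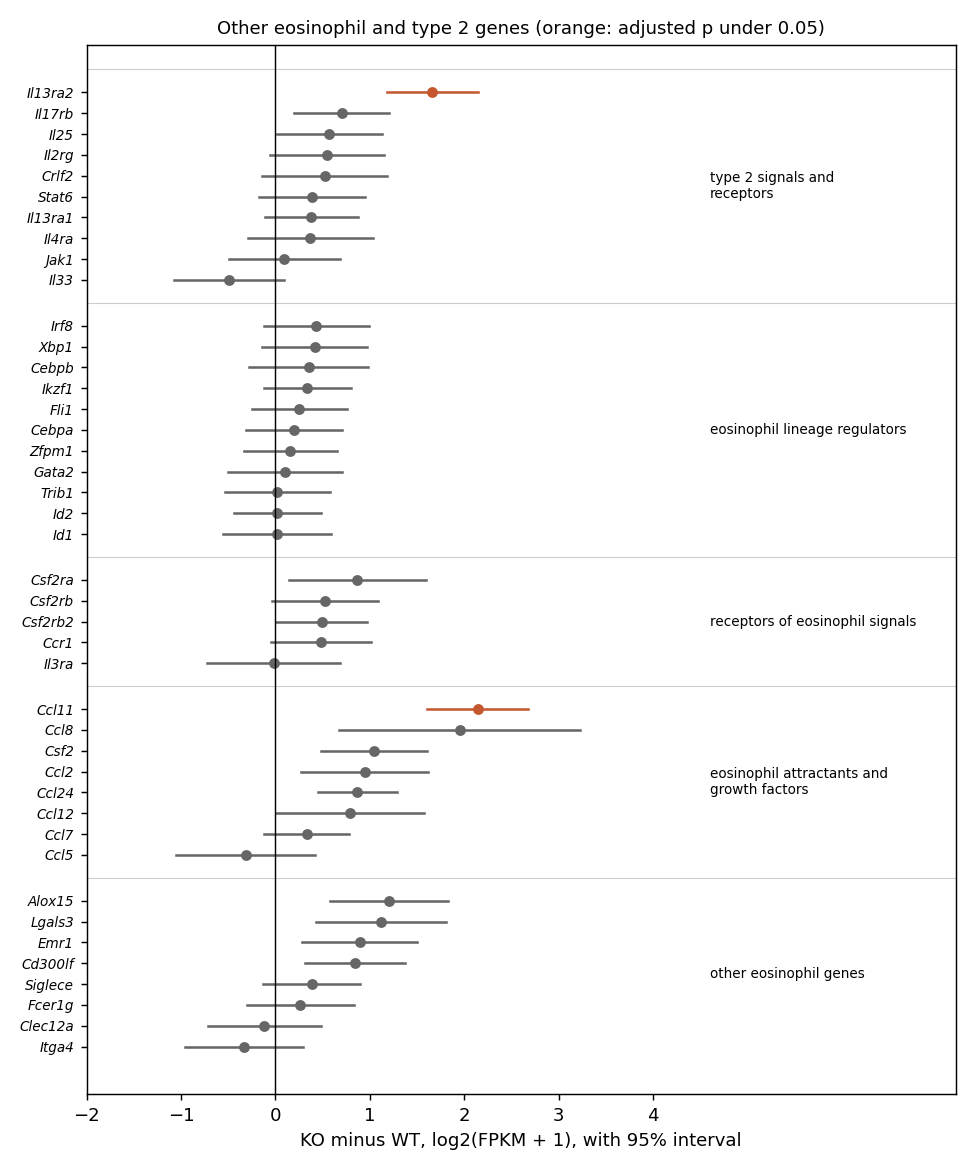
KO minus WT of log2(FPKM + 1) with its 95% interval for the tested genes of 5 lists related to eosinophils and type 2 immunity, from limma over all genes with 3 libraries per genotype. Ccl11 and Il13ra2 (orange) passed at an adjusted p under 0.05 and the genes in grey did not.

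A list of 15 genes joined other members of the ribonuclease A family, to which the Ear genes belong, with Rnh1, the inhibitor of these enzymes, which is itself no ribonuclease. Of these, 8 were tested, Rnh1 among them, 0 passed in limma and 4 had an unadjusted p under 0.05. Rnh1 was at 101 to 125 FPKM in WT and 88.9 to 144 in KO (adjusted p = 1). Ang4, an angiogenin with activity against microbes, was at 23.6, 184 and 366 FPKM in mixed, male and female WT pools and at 379, 702 and 610 in KO (2.20 ± 0.70 SE, adjusted p = 0.24). Its close copy Ang3 was at 36.1, 351 and 749 FPKM in WT and 665, 1363 and 1112 in KO. Each passed in 4 of 15 alternatives, namely without the WT female library (adjusted p = 0.0017 and 0.0033), without both mixed pools (0.015 and 0.045), with the female share as a covariate (0.020 and 0.043) and with a term for the kind of pool. Without the WT mixed library their changes were 1.07 and 0.97 and did not pass. Rnase1 and Rnase4, broadly expressed ribonucleases, had adjusted p of 1, with levels of 5.15 to 12.0 and 13.8 to 19.8 FPKM in WT and of 6.48 to 12.3 and 17.7 to 24.6 in KO.

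Markers of other blood and immune cells were set beside the members by list. Of the 14 macrophage genes 11 were tested and 0 passed in limma, 8 had an unadjusted p under 0.05 (8.88% of all genes did), and the median change was 0.65. Their summed level was 386, 697 and 455 FPKM in mixed, male and female WT pools and 740, 814 and 863 in those of KO, higher in KO without overlap. Within WT the male pool had the highest macrophage sum and the lowest Ear sum. Within KO both sums were lowest in the mixed and highest in the female pool, with Ear sums of 36.96, 38.8 and 70.8 FPKM in mixed, male and female pools. Lyz2, the lysozyme of macrophages and neutrophils, made up most of the sum, at 302 to 576 FPKM in WT and 597 to 662 in KO (adjusted p = 0.52). Marco, a macrophage receptor, was listed at 0 in 4 libraries. The lymphocyte list summed to 29.6 to 81.2 FPKM in WT and 161 to 383 in KO, with 1 of its 8 tested genes higher, Igj, the joining chain of secreted immunoglobulin, which made up most of the sum (adjusted p = 0.015, not passing under quantile or median ratio scaling or without the filter, 0.070, 0.084 and 0.17). Both lists' part in the Ear result was not tested.

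The sums of the remaining marker lists did not separate the genotypes. Mast cell and basophil markers summed to 25.9 to 37.8 FPKM in WT and 32.3 to 46.9 in KO, and Hdc made up most of the sum. Of 5 tested, 0 passed in limma (1 at an unadjusted p under 0.05). Each KO library lay above each WT library for 2 of these, Tpsb2 and Kit, as for 7.46% of all genes tested. The same held for Tpsab1, which was under the filter. Ms4a2, a chain of their IgE receptor, was listed at 0 in all libraries. Neutrophil markers summed to 262 to 714 and 358 to 628 FPKM (0 of 11 passed, 3 at an unadjusted p under 0.05), and platelet markers to 13.6 to 23.5 and 15.5 to 23.1 (0 of 4, 0 unadjusted). Granule genes of marrow progenitors summed to 18.1 to 54.3 FPKM in WT and 35.1 to 46.1 in KO, with 0 of 8 passing and 2 at an unadjusted p under 0.05. Of these, Mpo, the peroxidase of neutrophil precursors, was at 4.19, 2.48 and 1.36 FPKM in mixed, male and female WT pools. In those of KO it was at 1.83, 0.576 and 1.03 FPKM. Erythroid markers summed to 354 to 2522 and 410 to 497 FPKM (0 of 7, 2 unadjusted), highest in the WT male library. There Ear1, Ear2, Prg2, Epx and the Ear sum were lowest, Ear10 and Ear11 were not, and Siglec5 was highest within WT.

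**Figure D5:**
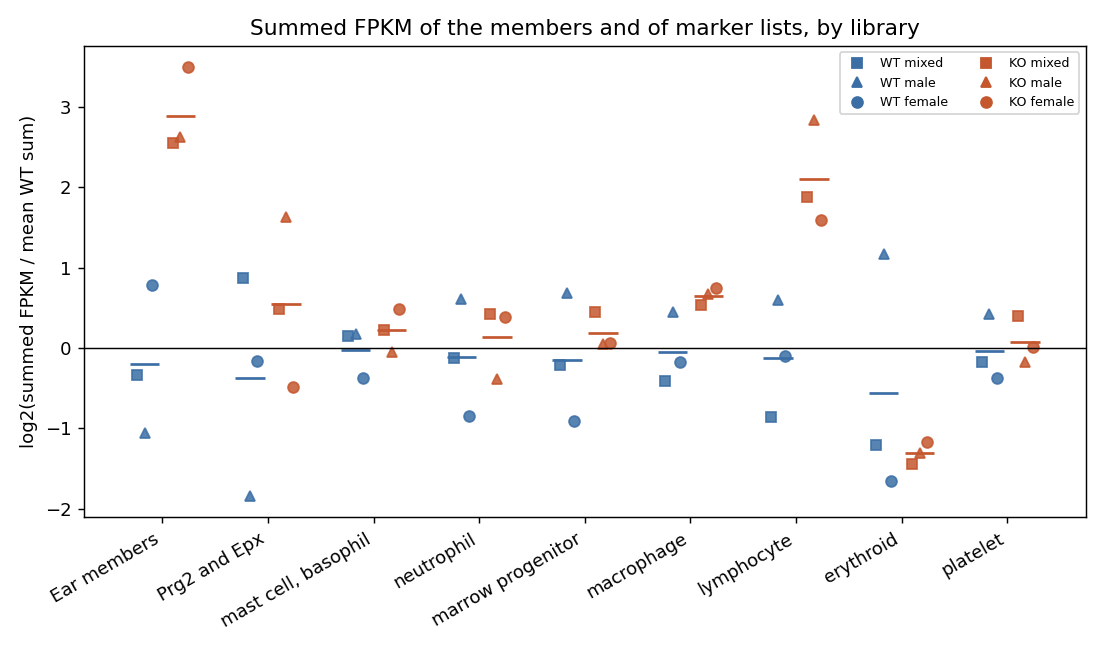
Summed FPKM of the 4 Ear members, of Prg2 with Epx and of 7 marker lists in each library, as log2 of the ratio to the mean WT sum; symbols as for the member levels, bars the mean of the 3 log2 values. KO points of the Ear, macrophage and lymphocyte sums lie above all WT points, and those of the other sums overlap with WT.

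The 8 genes whose pattern over the 6 libraries was most like that of the 5 members with a mean of at least 1 FPKM were sought among 13873 others. Likeness was the root mean square difference between log2(FPKM + 1) profiles, each centred on its mean. Ccl11 came first at 0.37, followed by Sprr3, a protein of squamous epithelium, at 0.39, Apol10a, an apolipoprotein L, at 0.40 and Il13ra2 at 0.40. Then came Tmem45b, a membrane protein, at 0.44, Mrgprg, a Mas-related receptor, at 0.45, Cldn22, a claudin, at 0.48, and Hpgds, the prostaglandin D2 synthase of blood cells, at 0.50. The mean member profile spanned 2.85 on the same scale. Hpgds was at 0.872, 0.758 and 0.544 FPKM in mixed, male and female WT pools and at 2.97, 3.81 and 3.43 in those of KO. Since the members differ mostly by genotype, genes that do so too come first, and no test is attached.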

How the data were processed

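RNA of olfactory epithelium was sequenced in 3 WT and 3 KO pooled libraries. Per the labels' protocols, libraries were normalized with duplex-specific nuclease, which lowers the most abundant transcripts and can compress differences. The submitters' processing notes name build mm9, the aligners Bowtie and TopHat2 2.0.7, Cufflinks 1.3.3 and also Cuffdiff. No gene annotation is named there. The deposited table gives FPKM per gene symbol, a unit read from its header form and programs. The 2 columns without a sex were taken as the mixed pools. How fragments were divided among Ear copies is not stated there either.

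Of 22310 rows, 429 repeats of a symbol were left out, keeping the row of highest mean, which left 21881. A mean of 0.5 FPKM or more was required, which 15067 genes met. limma 3.58.1 (R 4.3.3) was run on log2(FPKM + 1) with its mean-variance trend, and adjusted p-values (Benjamini-Hochberg) under 0.05 passed. Such changes understate those of low genes. The fit was also run on simulated data with independent noise and no shifts of whole libraries. Nothing on these libraries is read from that run. An exact 0 can be a failed estimate and is called listed at 0.

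Depth was estimated from 2122 genes whose single transcript reached 1200 nt, shortened by 150 nt, as the depth at which low values fall on whole fragments. Fragment numbers are approximate, since lengths come from GRCm38 models, and they carry counting error only. Promoters and transcripts were compared with Biopython 1.88. Members, lists and rules were chosen with earlier results of these data known. Named genes are Slc12a2, the members, the other Ear genes, up to 4 genes per list of mean of at least 1 FPKM with the smallest p and those that passed, and 8 genes most like the members; marker lists of other cells are mostly given as sums, and other genes, such as Ccl24, Il33, Arg1, Rnase1, Rnase4 and Mpo, are named for a role or a low level and were picked after their values were seen. Alternatives covered the pseudocount, filter, scaling, prior variance, each library left out, the mixed pools left out and terms for pool and sex.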

Additional observations from a re-analysis of the deposited data

Results flagged for a closer look

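Epx had opposite differences in the sexes: KO minus WT was 0.115 FPKM in the male pools and -0.101 FPKM in the female pools, with 1 library of each genotype in each. The gene lay under the filter, so the difference between sexes was not tested, and its levels there are worth about 0.955 to 4.79 fragments.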

How the results depend on the processing

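The ribonuclease sum was higher in KO in each alternative tried, by a log2 difference of 2.504 (without the WT male library) to 3.28 (without the WT female library). With all listed Ear genes summed, KO minus WT was 2.33 to 3.40 over the kinds of pool, with 1 library of each genotype per kind. Siglec5 differed by 0.80 with a pseudocount of 0.1. Of the genes called between genotypes that are named here, Ccl11, Il13ra2, Fcgbp, Retnla, Alox12e, Sprr3, Apol10a and Mrgprg passed in every alternative that tested them, while Chi3l3, Chi3l4, Igj, Tmem45b, Cldn22 and Hpgds did not in at least 1.

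The number of genes that passed between genotypes, 126, was 30 without the filter, 270 with quantile and 260 with median ratio scaling, 348 without both mixed pools, 209 with the female share as a covariate, and 40 to 542 with 1 library left out (40 without KO female, 44 without KO mixed, 81 without WT male, 433 without WT mixed, 542 without WT female). With the kind of pool as a replicate block it was 440. Ang3, Ang4 and Alox15 then passed (adjusted p = 2.1e-10, 4.6e-10 and 0.013), as did Slc12a2 (0.0082). Deviations from the genotype means correlated across the pair at 0.36 in mixed, 0.21 in male and -0.092 in female pools, so the kinds of pool were not taken as pairs.

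For the female share, the 15 calls became 0 without the filter (123 at an unadjusted p under 0.05), 0 with quantile (152) and 0 with median ratio scaling (138), 28 with a filter of 2 FPKM, 36 without both mixed pools and 0 to 50 with 1 library left out (0 without KO female, with 133 unadjusted, 1 without WT female and 34 to 50 without each of the others). For genotype by female share, the 19 calls became 12 with a pseudocount of 0.1, 0 without the filter (392 unadjusted), 0 with quantile (168) and 0 with median ratio scaling (143), 43 with a filter of 2 FPKM and 14 to 2908 with 1 library left out (2908 without WT male, 29 without KO female, 39 without KO mixed or KO male). For mixed pools, the 8 calls (5 higher) became 16 with a pseudocount of 0.1, 3 without the filter, 20 with a filter of 2 FPKM, 22 with quantile scaling (6 higher) and 93 to 375 with 1 library left out; median ratio scaling gave 8 (2 higher). The cause of these shifts was not tested.

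Signs turned only in values that did not pass. With a pseudocount of 0.1 Ear11 was at -0.28 for the female share and Ear1 at 0.19 for mixed pools. Siglec5 was at -0.11 with quantile and -0.088 with median ratio scaling for genotype by female share. With 1 library left out, Gata2 ran from -0.099 to 0.26 between genotypes. The female share then ran from -0.037 to 0.67 for Ear2, -0.57 to 0.51 for Ear11 and -1.81 to 0.62 for Prg2. The product with genotype ran from -1.85 to 0.21 for Ear1, -1.87 to 1.65 for Ear2, -4.52 to 4.01 for Ear10, -1.93 to 3.45 for Ear11 and -0.86 to 1.299 for Siglec5, and kept its sign for Prg2 (-5.82 to -0.10). Mixed pools ran from -0.56 to 0.25 for Ear1, -0.22 to 1.43 for Prg2 and -0.23 to 0.54 for Siglec5.

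With 3 pooled libraries a genotype and few fragments behind Ear11, Epx and the WT levels of Ear1, small differences in these genes were not detectable.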
